A study of Mus musculus with 12 samples.

Results

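The 10 claudins described here (Cldn1, Cldn2, Cldn3, Cldn4, Cldn6, Cldn7, Cldn10, Cldn12, Cldn18 and Cldn23) were chosen by name as claudins of epithelial tight junctions, and their probes are every non-control probe that carries one of these gene names. They are 10 of 37074 gene names and have 12 of 56605 probes, with 2 probes each for Cldn2 and Cldn7. The tumours were KP orthotopic pancreatic tumours (the labels do not expand KP, or say whether the implanted cells were 1 clone) in female C57BL/6 mice aged 8 weeks. FAKi, an inhibitor of focal adhesion kinase, was given by gavage at 50 mg/kg for 14 days to 6 mice, and vehicle for 14 days to 6 mice, so all animals carried the same kind of tumour. Each tumour's RNA was hybridised to 1 one-colour array. The labels number the tumours without saying more about how they were sampled, so p-values measure the spread between these samples.

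Claudins are membrane proteins that span the membrane 4 times and pair across neighbouring cells to form tight junction strands. Most of them seal the space between epithelial cells, while a few form channels that let ions or water through it. Pancreatic duct cells and duct-derived tumours are known for strong claudin expression, and the zinc finger repressors of the Snail and Zeb families, which act in epithelial-mesenchymal transition, are known to bind E-boxes in claudin promoters. In whole tumour tissue, fewer epithelial cells and less claudin RNA per cell cannot be told apart.

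Promoter windows of 250 bases before to 50 after a start were matched in RefSeq (GRCm38.p6) for 9 of the 10 genes, as 14 windows. Cldn23 had no entry. The sequence CAGGTG or its complement CACCTG, the E-box that those repressors bind, was searched on both strands, and 4 of the 14 windows held it, 1 each for Cldn3, Cldn4, Cldn6 and Cldn7, against 20.2% of all 32851 promoter windows. The windows of Cldn3 (chr5:134985964-134986263, plus strand), Cldn4 (chr5:134946885-134947184, minus strand) and Cldn6 (chr17:23679115-23679414, plus strand) are shown because Cldn3 and Cldn6 had the largest fitted differences in size between the groups and Cldn4 lies beside Cldn3. Capitals mark the E-box letters, 1 match in Cldn3 and 2 each in Cldn4 and Cldn6.
Cldn3 promoter: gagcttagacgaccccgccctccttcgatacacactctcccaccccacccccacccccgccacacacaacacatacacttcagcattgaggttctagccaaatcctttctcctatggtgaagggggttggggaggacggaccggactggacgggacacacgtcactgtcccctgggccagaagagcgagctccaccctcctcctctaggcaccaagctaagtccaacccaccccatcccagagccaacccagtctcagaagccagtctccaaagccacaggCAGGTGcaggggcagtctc
Cldn4 promoter: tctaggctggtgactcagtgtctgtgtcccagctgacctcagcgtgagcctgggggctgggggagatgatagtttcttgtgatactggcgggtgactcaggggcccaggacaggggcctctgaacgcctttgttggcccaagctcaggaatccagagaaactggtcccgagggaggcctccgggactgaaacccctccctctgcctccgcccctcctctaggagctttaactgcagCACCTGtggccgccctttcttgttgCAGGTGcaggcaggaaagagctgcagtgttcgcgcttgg
Cldn6 promoter: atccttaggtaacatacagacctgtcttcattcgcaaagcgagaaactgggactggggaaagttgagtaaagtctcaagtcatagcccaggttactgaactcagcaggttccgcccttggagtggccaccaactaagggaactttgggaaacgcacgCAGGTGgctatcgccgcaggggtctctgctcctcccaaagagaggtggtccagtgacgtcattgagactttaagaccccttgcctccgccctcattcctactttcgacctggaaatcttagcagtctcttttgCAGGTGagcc
A match describes these letters and not a bound site.

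For Cldn7 the window of one start (chr11:69965171-69965470, plus strand) is shown because it contains the whole of the dimmer Cldn7 probe, marked in capitals at bases 100 to 159 of the window. Between the end of that probe and the start lie 91 bases, so its 60 letters lie outside a transcript that begins there. RefSeq's other Cldn7 start has its window upstream, at chr11:69964529-69964828. The window also holds 2 E-box matches, 1 of them overlapping the end of the probe.
Cldn7 promoter: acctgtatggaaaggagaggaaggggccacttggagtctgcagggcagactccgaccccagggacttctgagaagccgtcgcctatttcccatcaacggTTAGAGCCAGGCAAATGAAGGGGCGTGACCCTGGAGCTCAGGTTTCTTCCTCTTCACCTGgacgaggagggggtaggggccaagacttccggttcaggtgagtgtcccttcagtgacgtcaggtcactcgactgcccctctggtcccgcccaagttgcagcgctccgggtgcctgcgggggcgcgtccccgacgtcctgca

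The probes of Cldn4 (mm9 chr5:135422135-135422194, minus strand), Cldn10 (mm9 chr14:119273459-119273518, plus strand) and the dimmer of the 2 Cldn2 probes (mm9 chrX:136343432-136343491, plus strand) are shown as examples of what was hybridised. The first 2 are the probes whose signal stands for their genes below, while Cldn2 is represented by its brighter probe and the dimmer one is given beside it.
Cldn4 probe: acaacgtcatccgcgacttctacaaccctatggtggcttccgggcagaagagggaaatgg
Cldn10 probe: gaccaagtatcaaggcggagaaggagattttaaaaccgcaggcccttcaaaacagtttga
Cldn2 dimmer probe: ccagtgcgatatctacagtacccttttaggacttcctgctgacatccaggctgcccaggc

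All values below are the log2 of the processed red signal minus the 75th percentile of the same array. A value of 0 is the signal of that percentile, and values of different probes are not set against each other. Between 66.6% and 76.1% of spots per array were well above background, the scanner software's own call of a measurable spot, and 0 were saturated. FAKi 6, vehicle 5 and vehicle 6 stood apart from the other arrays, with mean correlations with the rest of 0.935, 0.931 and 0.918, against 0.944 to 0.958 for the other 9. The FAKi 6 array was also the only one of the 12 on its slide and was read with its own grid file. Results that rest on these 3 tumours are given with and without them.

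No claudin passed the test between FAKi and vehicle tumours. Limma's adjusted p was 0.999 for each of the 10, and 0 of 10 passed 0.05, against 0% of the 27373 genes tested. At an unadjusted p under 0.05 stood 1 of 10, Cldn3, against 4.79% of all genes. Cldn3 was kept for the test mainly through the vehicle tumours, being well above background in 5 of 6 of them and in 1 of 6 FAKi tumours. The count of claudins under 0.05 was 0 with quantile normalization and with the authors' deposited table, and 2 with normexp (Cldn6 and Cldn7, not Cldn3). It was 2 with median centring, where 1099 of the 27373 genes were under 0.05. With array weights it was 3 (Cldn3, Cldn6 and Cldn7), where 5169 of the 27373 genes were. With 1 tumour left out, Cldn3 was under 0.05 in 3 of 12 fits (unadjusted p from 0.00295 to 0.0873 by limma), and without vehicle 6 the count of all genes was 3776, against 1312 with it. The difference was below 0 for 7 of the 10 claudins and above 0 for 3, while 39.5% of all genes lay below 0. The median difference was -0.30 over the 10 claudins and 0.08 over all genes. Differences of at least 1 log2 unit in size were seen for 4 of 10, all below 0, against 3.92% of all genes. These were Cldn1, Cldn3, Cldn6 and Cldn7. Cldn1 and Cldn3 were dim, and with normexp they stood at -0.32 and -0.54. Cldn7 stood at -0.61 as the mean of its probes. The differences of the claudins were also less precise, with a median SE of 0.78 against 0.33 for all genes. The claudins were chosen with earlier results of these data known. The values of the FAKi and vehicle tumours overlapped for every claudin probe, and 0.238% of the 27263 genes with all values had groups that did not overlap.

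The claudins varied widely from tumour to tumour within each group. The within-group SD had a median of 1.54 log2 units over the 10 claudins and 0.59 over all genes. For 6 of the 10 it lay above 1.13, the 90th percentile of all genes. These 6 were Cldn1, Cldn3, Cldn4, Cldn6, Cldn7 and Cldn23. Cldn12 was the steadiest, with a within-group SD of 0.35. The median SE of the difference was 0.78 for the claudins and 0.33 for all genes.

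**Figure D1:**
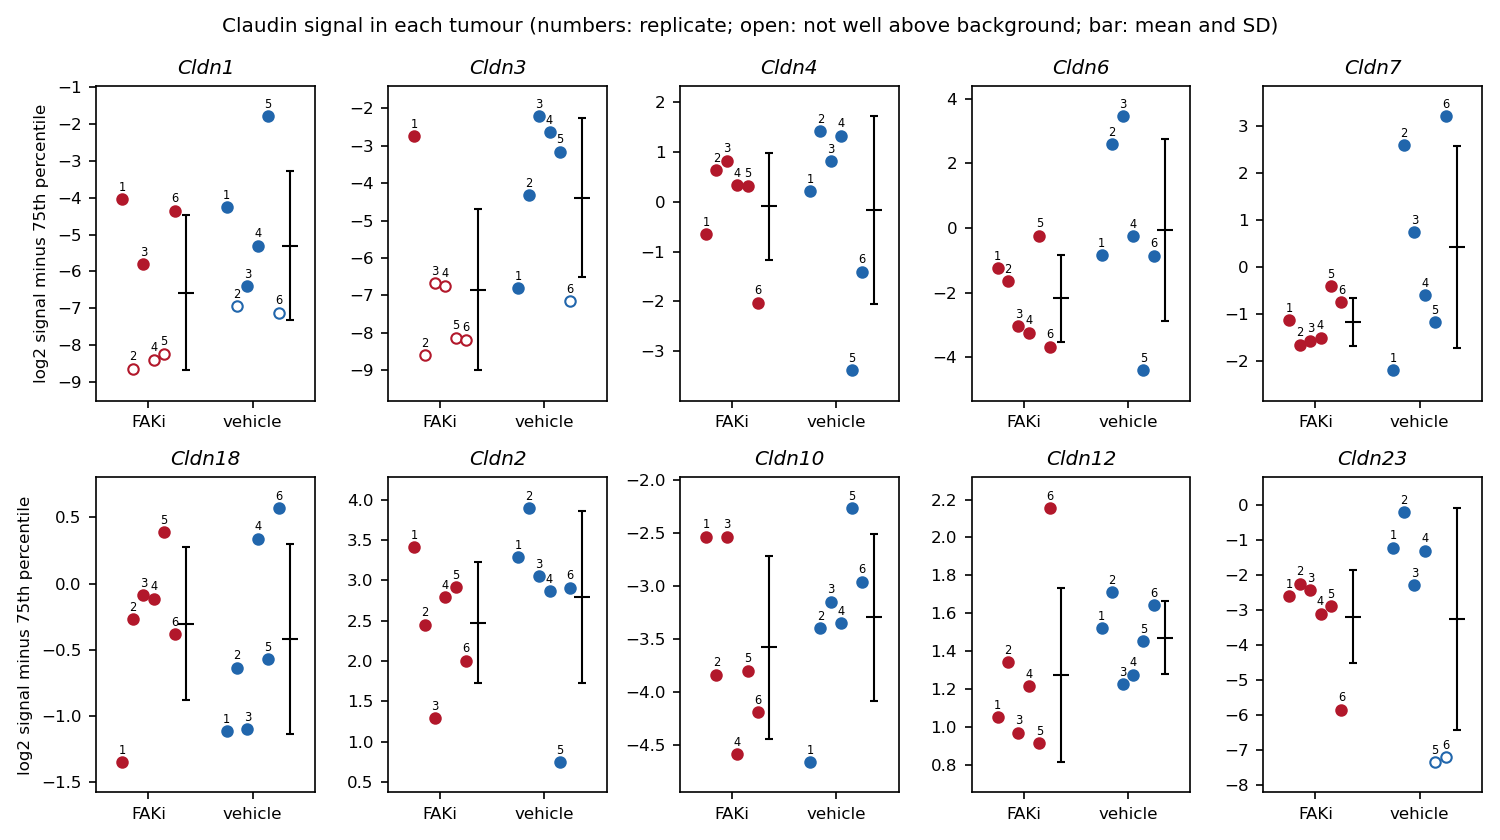
Log2 signal of each claudin minus the array's 75th percentile (y axis, own scale per panel) in 6 FAKi and 6 vehicle tumours, numbered by replicate, with the mean and SD as bars. Filled points were well above background and open points were not. The groups overlap in every panel, and Cldn3 has 1 filled point among FAKi and 5 among vehicle tumours.

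Among the barrier-forming claudins, Cldn3, which seals the junction of many simple epithelia, had the most negative fitted difference, but it was dim and was kept for the test mainly through the vehicle tumours. In FAKi tumours its lowest, median and highest values were -8.60, -7.44 and -2.75, and in vehicle tumours -7.15, -3.75 and -2.22. Its spot was measurable (well above background) in FAKi 1 alone of the 6 FAKi tumours and in 5 of 6 vehicle tumours (all but vehicle 6). FAKi 1 was therefore the high tumour of its group and vehicle 1 and 6 were the low tumours of theirs, within the range of the FAKi tumours. The difference was -2.46 (SE 1.08, 95% interval -4.78 to -0.15, unadjusted p = 0.0389, limma's adjusted p = 0.999). Since 5 of its 6 FAKi values were not well above background, this value is not a measured fold. With normexp background correction, which pulls dim values together, it was -0.54, and with slide as a fixed block it was -1.23. On the 2 slides that held both groups, the difference was -5.43 within slide 1 (1 FAKi, 2 vehicle) and 2.98 within slide 4 (1 FAKi, 2 vehicle), so the slides gave opposite signs. Every other slide held tumours of 1 group only. For each claudin the fit with slide as a fixed block therefore takes its difference from slides 1 and 4 alone, which include vehicle 5 and vehicle 6.

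Cldn6, a claudin of embryonic epithelia that is known to return in some carcinomas, was well above background in all 12 tumours. It ranged from -3.66 to -0.24 with a median of -2.34 in FAKi tumours and from -4.40 to 3.45 with a median of -0.55 in vehicle tumours. Vehicle 3 (3.45) and vehicle 2 (2.60) lay far above the other 10, and vehicle 5 lay lowest of the 12. The difference was -2.12 (SE 1.105, 95% interval -4.50 to 0.25, unadjusted p = 0.0758, limma's adjusted p = 0.999). All 6 FAKi tumours lay below the vehicle mean of -0.05, and so did vehicle 1, 4, 5 and 6. With slide as a fixed block the difference was -0.93 (SE 1.79), within slide 1 it was 0.24 and within slide 4 it was -2.11. It was -1.96 with normexp, -3.22 with array weights and -3.11 without FAKi 6, vehicle 5 and vehicle 6, each larger in size than the -0.54, -2.85 and -2.58 of Cldn3 in the same fits.

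Cldn7, a claudin of the basolateral membrane as well as the junction, was well above background in all 12 tumours by both of its probes. By the brighter probe (mm9 chr11:69781255-69781314) it ranged from -1.65 to -0.40 with a median of -1.31 in FAKi tumours, and from -2.19 to 3.19 with a median of 0.08 in vehicle tumours. The FAKi tumours were tightly grouped (SD 0.50, against 2.14 for vehicle, n = 6 each), and vehicle 6 and vehicle 2 were high. The difference was -1.59 (SE 0.79, 95% interval -3.28 to 0.10, unadjusted p = 0.0638, limma's adjusted p = 0.999). Within slide 1 it was -0.19 and within slide 4 it was -4.01, and without vehicle 6 it was -1.04. With slide as a fixed block it was -2.10 (SE 0.84, limma's unadjusted p = 0.0329 and adjusted p = 0.9999). By the dimmer probe (mm9 chr11:69778772-69778831), whose letters are shown above, the values ran from -5.19 to -3.46 in FAKi tumours and from -6.12 to -3.23 in vehicle tumours. The difference by that probe had the other sign, 0.36 (SE 0.43), and the 2 probes correlated with r = 0.49 over the 12 tumours, a description of 2 probes of 1 gene.

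Cldn1, a barrier claudin needed for the water barrier of mouse skin, was measurable in 3 of 6 FAKi and 4 of 6 vehicle tumours. Its lowest, median and highest values were -8.63, -7.01 and -4.04 in FAKi tumours and -7.11, -5.85 and -1.80 in vehicle tumours. FAKi 2, 4 and 5 were the lowest and were not well above background, while vehicle 5 was highest of the 12. The difference was -1.27 (SE 1.04, 95% interval -3.50 to 0.96, unadjusted p = 0.241, limma's adjusted p = 0.999). It was -0.57 without vehicle 5 and -0.32 with normexp, and it was -4.13 within slide 1 and 2.98 within slide 4.

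Cldn4, a barrier claudin and the receptor of a Clostridium enterotoxin, was well above background in all 12 tumours. It ranged from -2.03 to 0.83 with a median of 0.33 in FAKi tumours and from -3.39 to 1.41 with a median of 0.51 in vehicle tumours. The low tumours were FAKi 6, vehicle 5 and vehicle 6, the same 3 whose arrays stood apart. The difference was 0.08 (SE 0.78, 95% interval -1.59 to 1.75), and -0.65 without those 3 tumours.

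Cldn18, a claudin of stomach and lung epithelium in mice, ranged from -1.35 to 0.39 with a median of -0.19 in FAKi tumours and from -1.12 to 0.57 with a median of -0.60 in vehicle tumours. FAKi 1 was lowest and vehicle 6 highest of the 12, with the groups spread over the same range. The difference was 0.12 (SE 0.36, 95% interval -0.66 to 0.89).

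Of the channel-forming claudins, Cldn2, which forms a pore for small cations and water, was well above background in all 12 tumours by both probes. By its brighter probe (mm9 chrX:136345244-136345303) it ranged from 1.29 to 3.41 with a median of 2.62 in FAKi tumours and from 0.75 to 3.90 with a median of 2.98 in vehicle tumours. FAKi 3 and vehicle 5 were the low tumours. The difference was -0.32 (SE 0.48, 95% interval -1.36 to 0.72), the dimmer probe gave -0.14 (SE 0.73), and the probes correlated with r = 0.92 over the 12 tumours. With 1 tumour left out the difference of the brighter probe ran from -0.73 (without vehicle 5) to -0.08 (without FAKi 3). Cldn10, whose isoforms form channels for cations or for anions, ranged from -4.59 to -2.53 with a median of -3.82 in FAKi tumours and from -4.66 to -2.26 with a median of -3.25 in vehicle tumours. Vehicle 1 was lowest and vehicle 5 highest, and the difference was -0.28 (SE 0.44, 95% interval -1.23 to 0.66), from -0.56 without vehicle 1 to -0.08 without vehicle 5.

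Cldn12, a claudin that lacks the usual tail motif for binding scaffold proteins, ranged from 0.92 to 2.16 with a median of 1.14 in FAKi tumours and from 1.23 to 1.71 with a median of 1.49 in vehicle tumours. FAKi 6 was highest of the 12, and the other 5 FAKi tumours lay below the vehicle mean of 1.47, as did vehicle 3, 4 and 5. The difference was -0.20 (SE 0.24, 95% interval -0.70 to 0.31), from -0.37 without FAKi 6 to -0.12 without FAKi 5. Cldn23, a less studied claudin of the gut surface epithelium, ranged from -5.85 to -2.26 with a median of -2.76 in FAKi tumours and from -7.35 to -0.22 with a median of -1.81 in vehicle tumours. Its spot was measurable in all 6 FAKi and in 4 of 6 vehicle tumours. FAKi 6 was low, vehicle 5 and vehicle 6 were lower still and not well above background, and vehicle 1, 2 and 4 were the highest. The difference was 0.08 (SE 1.22, 95% interval -2.55 to 2.70), and 1.51 with slide as a fixed block.

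**Figure D2:**
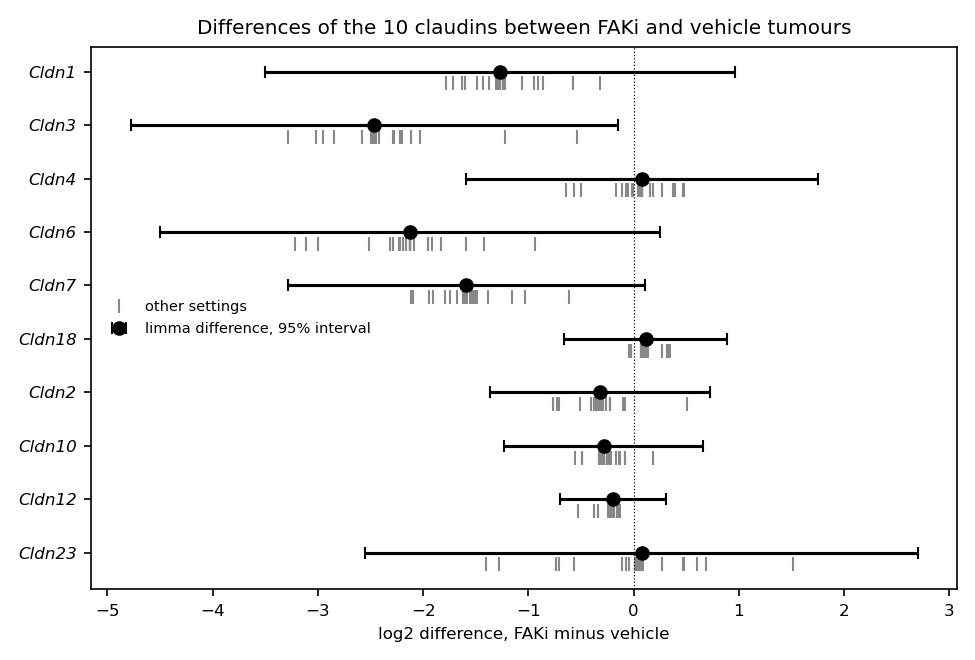
Log2 difference of each claudin, FAKi minus vehicle (x axis), by limma with its 95% interval (black), and the same difference under the other processing settings and with tumours left out (grey ticks). The interval of Cldn3 ends at -0.15, and all 9 others include 0. Cldn3 was well above background in 1 of 6 FAKi and 5 of 6 vehicle tumours, so its interval is not that of a measured fold. With normexp its difference was -0.54.

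Leaving out FAKi 6, vehicle 5 and vehicle 6 together moved several claudins. Without these 3 tumours (5 FAKi, 4 vehicle) Cldn23 stood at -1.40 (SE 0.37, unadjusted p = 0.00369, limma's adjusted p = 0.117) and Cldn6 at -3.11 (SE 0.95, unadjusted p = 0.00827, limma's adjusted p = 0.145). Cldn3 stood at -2.58 (SE 1.25, unadjusted p = 0.0652). At an unadjusted p under 0.05 were then 2 of 10 claudins, against 17.6% of all genes, and 0 of 10 passed the adjusted threshold. The median of the 10 was then -0.9997, and that of all genes 0.15. The low Cldn4 and Cldn23 of these 3 tumours went with epithelial identity scores of -0.38 in FAKi 6 and of -1.40 and -0.25 in vehicle 5 and 6, the 3 lowest of the 12. The part of epithelial content or array quality in these values was not tested.

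Over all 12 tumours the claudins did not move as 1 block. Over the 45 pairs of claudins the median Pearson r across the 12 tumours was 0.00, 23 pairs were above 0, and 2 reached 0.7. These are descriptions over arrays that share normalisation and the same 12 tumours. The 2 pairs were Cldn4 with Cldn23 (r = 0.91, with 0.88 within FAKi and 0.92 within vehicle tumours) and Cldn6 with Cldn2 (r = 0.74, with 0.62 within FAKi and 0.81 within vehicle tumours). Without FAKi 6, vehicle 5 and vehicle 6 the r of Cldn4 with Cldn23, both low in those 3 tumours, was 0.59, and that of Cldn6 with Cldn2 was 0.61. The highest r were then those of Cldn12 with Cldn23 (0.84, against -0.36 over all 12) and Cldn6 with Cldn7 (0.83, against 0.57). That of Cldn4 with Cldn2 fell from 0.57 to -0.09, so the summary over the pairs depends on those 3 tumours. Pairs with Cldn1, Cldn3 or Cldn23 include dim values (well above background on 7, 6 and 10 of 12 arrays). Cldn3 and Cldn4, whose probes lie 41089 bases apart on mouse chromosome 5 on opposite strands, had r = 0.04. At the other end, Cldn1 and Cldn4 had r = -0.61, and -0.27 without the 3 tumours.

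**Figure D3:**
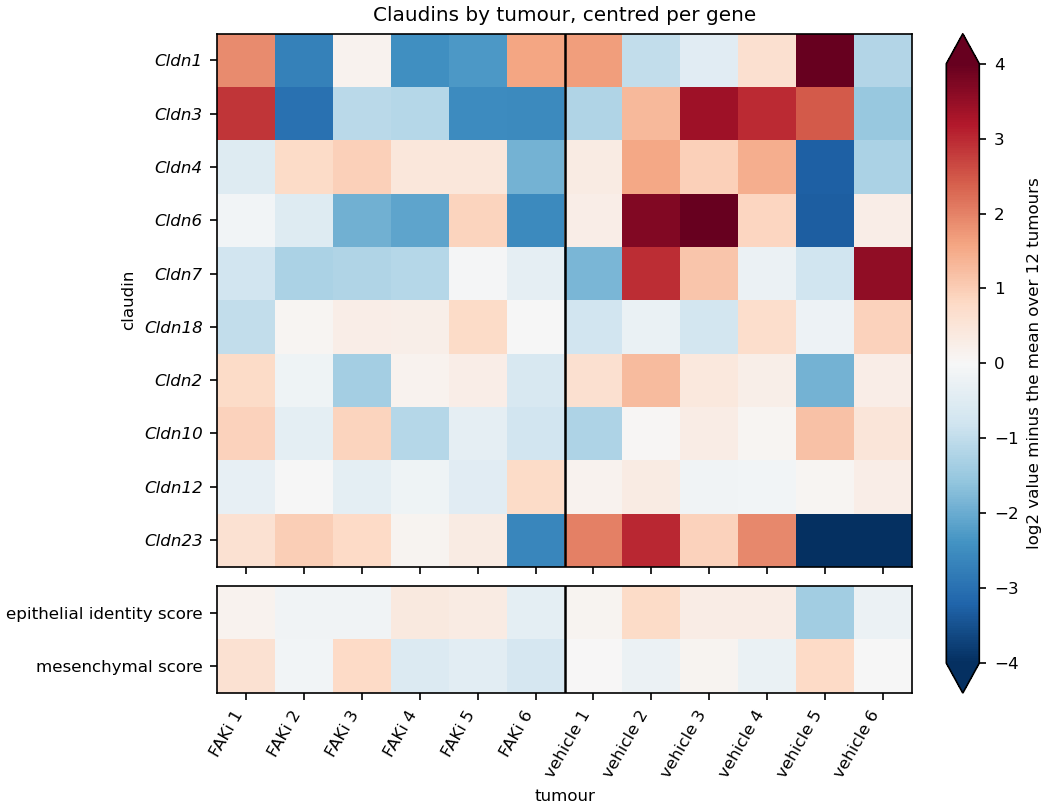
Log2 value of each claudin minus its own mean over the 12 tumours (colour, limits at -4 and 4), FAKi tumours left of the line and vehicle tumours right, with the epithelial identity and mesenchymal scores below. Cldn4 and Cldn23 are low together in FAKi 6, vehicle 5 and vehicle 6, and Cldn6 is high in vehicle 2 and vehicle 3.

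The claudins were then set against an epithelial identity score, the mean over 22 measured genes (cadherin 1, Epcam, keratins, splice regulators and desmosome genes, with no claudin among them) of each gene's deviation from its own average log2 level. The score ran from -0.38 to 0.40 in FAKi tumours and from -1.40 to 0.76 in vehicle tumours, with vehicle 5 lowest and vehicle 2 highest. Cdh1, the epithelial cadherin, and Epcam, an epithelial surface protein, were well above background in all 12 tumours. Cdh1 ran from 1.64 to 2.77 in FAKi tumours and from 0.75 to 2.85 in vehicle tumours. Cdh1, Epcam and the keratin Krt19 were each lowest of the 12 in vehicle 5. The keratin Krt8 went the other way and was highest of the 12 in vehicle 6, followed by FAKi 5 and vehicle 5. The low scores of vehicle 5 and vehicle 6 therefore do not describe every epithelial gene. Of the 10 relations tested, Cldn4 (r = 0.86), Cldn2 (r = 0.84), Cldn23 (r = 0.80) and Cldn6 (r = 0.68) passed 0.05 by Pearson's r. Their two-sided permutation p-values, adjusted over the 10 relations, were 0.00227 for Cldn4, Cldn2 and Cldn23 (raw p = 0.00052, 0.00047 and 0.00068) and 0.0338 for Cldn6 (raw p = 0.0135). By Spearman's rho 0 of 10 passed. Cldn4 (rho = 0.69, raw p = 0.0158), Cldn6 (rho = 0.64, raw p = 0.03) and Cldn2 (rho = 0.62, raw p = 0.0346) each had an adjusted permutation p of 0.115, and Cldn23 (rho = 0.54, raw p = 0.0748) had 0.187.

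Without vehicle 2 and vehicle 5, the tumours farthest from the median score, r was 0.65 for Cldn4, 0.55 for Cldn2, 0.63 for Cldn23 and 0.46 for Cldn6, with adjusted permutation p-values of 0.149, 0.245, 0.149 and 0.308, so the relations rest on those tumours. Without FAKi 6, vehicle 5 and vehicle 6 (n = 9), r was 0.36 for Cldn4, 0.72 for Cldn2, 0.45 for Cldn23 and 0.58 for Cldn6, with adjusted permutation p-values of 0.491, 0.163, 0.461 and 0.352. In that setting Cldn7 had the highest r, 0.78 (adjusted permutation p = 0.142). Within the 6 FAKi tumours r was 0.45 for Cldn4, 0.64 for Cldn2, 0.48 for Cldn23 and 0.46 for Cldn6. Within the 6 vehicle tumours it was 0.97 for Cldn4, 0.96 for Cldn2, 0.86 for Cldn23 and 0.87 for Cldn6. Slides held at most 3 arrays, too few for a correlation within a slide. Among the other 6 claudins, Cldn1 ran against the score (r = -0.62, rho = -0.40, raw permutation p = 0.0298 and 0.202, adjusted p = 0.0597 and 0.404). The r of Cldn3 was 0.02 (rho = 0.31), that of Cldn7 was 0.24 (rho = 0.26), that of Cldn18 was -0.01 (rho = -0.01), that of Cldn10 was -0.42 (rho = -0.29) and that of Cldn12 was -0.22 (rho = -0.36). Their raw permutation p-values ran from 0.171 to 0.966 by r and from 0.244 to 0.974 by rho, and the adjusted ones from 0.285 to 0.966 and from 0.406 to 0.974.

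**Figure D4:**
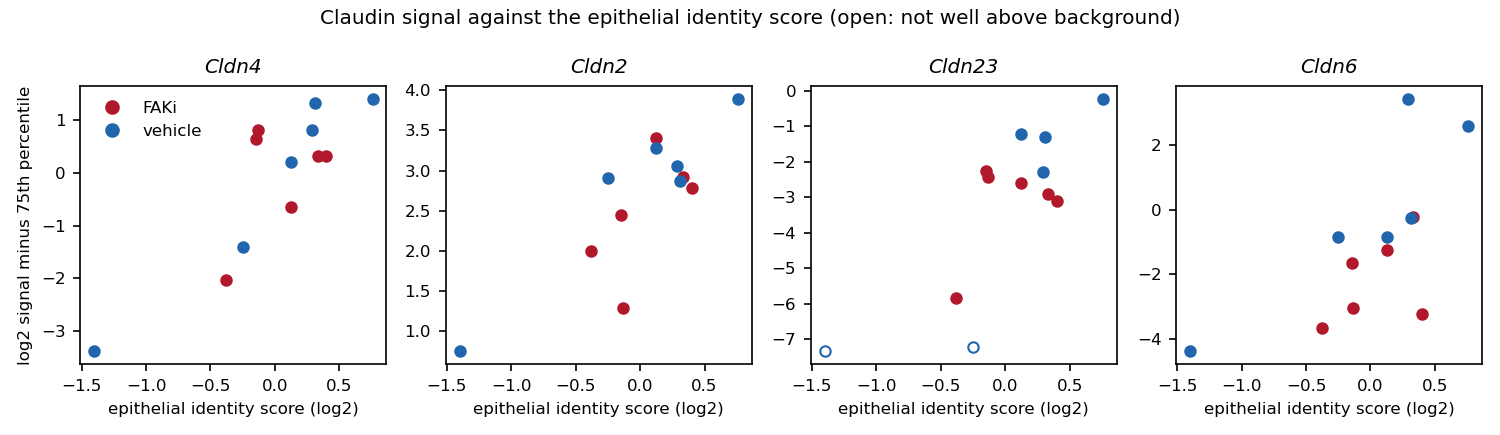
Log2 signal of Cldn4, Cldn2, Cldn23 and Cldn6 minus the array's 75th percentile (y axis, own scale per panel) against the epithelial identity score (x axis, log2) in 6 FAKi and 6 vehicle tumours, with open points not well above background. Vehicle 5 lies alone at a score of -1.40 and is lowest of all tumours for Cldn4, Cldn2, Cldn23 and Cldn6.

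Of the other 25 claudin genes listed, 23 were on the array and 13 were measured, 5 below 0 and 8 above 0, with a median difference of 0.06 and 0 at an unadjusted p under 0.05. The one of smallest p was Cldn9, an inner ear claudin in mice, whose probe lies on mouse chromosome 17 and 1081 bases from that of Cldn6 on the opposite strand. Cldn9 averaged -1.33 ± 0.33 in FAKi tumours and -0.29 ± 1.26 in vehicle tumours (SD, n = 6 each), a difference of -1.04 (SE 0.48, unadjusted p = 0.0503, limma's adjusted p = 0.999). It was highest in vehicle 3 and vehicle 2, as Cldn6 was. Cldn6 and Cldn9 correlated with r = 0.94 over the 12 tumours, 0.44 within FAKi and 0.997 within vehicle tumours.

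Cldn5, the endothelial claudin, differed by -0.40 (SE 0.40). The remaining measured family members were Cldn34b2 (-0.66, SE 0.60), Cldn20 (-0.13, SE 0.36), Cldn14 (-0.03, SE 0.38), Cldn11 (0.03, SE 0.28), Cldn34c1 (0.06, SE 0.30), Cldn19 (0.10, SE 0.48), Cldn15 (0.11, SE 0.38), Cldn34c4 (0.11, SE 0.32), Cldnd1 (0.13, SE 0.45), Cldnd2 (0.20, SE 0.24) and Cldn34a (0.23, SE 0.62). Cldn8, Cldn13, Cldn22, Cldn24, Cldn34b1, Cldn34b3 and Cldn34b4 were well above background in 0 of 12 tumours.

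**Figure D5:**
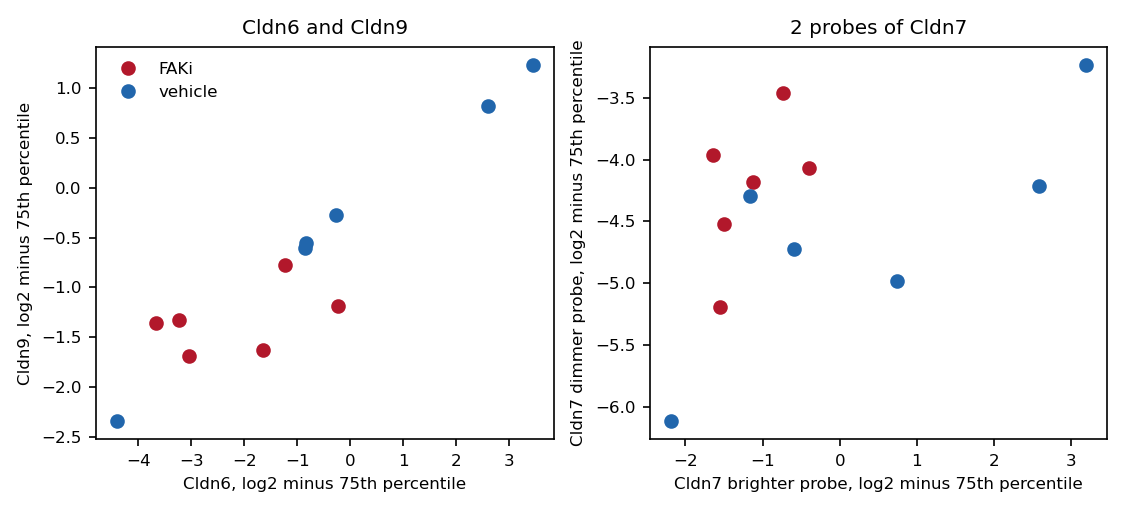
Left, Cldn9 against Cldn6 (log2 minus the 75th percentile on both axes), where vehicle 2 and vehicle 3 lie apart at the upper right. Right, the dimmer against the brighter probe of Cldn7 on the same scale, where vehicle 2 and vehicle 6 are high by the brighter probe. Points are 6 FAKi and 6 vehicle tumours.

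Of the 24 other tight junction proteins (occludin, the ZO scaffolds, JAM and angulin proteins, polarity proteins), all 24 were measured, 14 below 0 and 10 above 0, with a median of -0.08. At an unadjusted p under 0.05 stood 3, against 4.79% of all genes, and past the adjusted threshold 0. Of all genes 39.5% lay below 0. The 2 of smallest p were Ildr2, an angulin-family membrane protein (-1.20, SE 0.40, unadjusted p = 0.0101, limma's adjusted p = 0.941), and Marveld3, a relative of occludin (-1.39, SE 0.53, unadjusted p = 0.0198, limma's adjusted p = 0.999). Of the 22 measured epithelial identity genes 8 were below 0 and 14 above 0, with a median of 0.12 and 0 at an unadjusted p under 0.05. The 2 of smallest p were Cdh3, the placental cadherin (1.12, SE 0.71), and Rab25, a GTPase of epithelial recycling (-1.003, SE 0.68). Of the 12 mesenchymal transition genes 7 were below 0 and 5 above 0, with a median of -0.03. An unadjusted p under 0.05 was reached by 2 of them, against 4.79% of all genes. These were Cdh11, a mesenchymal cadherin (0.66, SE 0.25, limma's adjusted p = 0.999), and Foxc2, a forkhead factor of mesenchyme (-1.63, SE 0.73, limma's adjusted p = 0.999).

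Markers of other cell types that the tumour pieces could hold also differed in level between the tumours. Of the 8 ductal markers all were measured, 5 below 0 and 3 above 0. Their level, a mean over the list formed like the epithelial score, ran from -0.43 to 0.33 in FAKi tumours and from -0.68 to 0.60 in vehicle tumours. Of 12 acinar markers 10 were measured and all 10 were above 0, with a median difference of 0.44, a level from -0.10 to 0.62 in FAKi tumours and from -0.72 to 0.46 in vehicle tumours, and Ptf1a was never well above background. Of 12 stomach and gut markers, a tissue of Cldn18 and Cldn23, 5 were below 0 and 7 above 0, with a level from -0.33 to 0.48 in FAKi tumours and from -1.01 to 0.71 in vehicle tumours. The 5 liver markers, from a tissue that also expresses Cldn1, Cldn2 and Cldn3, ran from -0.16 to 1.23 in FAKi tumours and from -2.11 to 0.54 in vehicle tumours, with 3 above 0 and 2 below 0. All 5 measured lung markers were above 0 (a median of 0.52), with a level from -0.35 to 0.63 in FAKi tumours and from -0.80 to 0.76 in vehicle tumours. All 7 endothelial markers, Cldn5 among them, were below 0 (a median of -0.34). Their level ran from -1.02 to 0.39 in FAKi tumours and from -0.79 to 0.94 in vehicle tumours. For all these lists the background is that 39.5% of all genes lay below 0. The level of the 5 measured mesothelial markers ran from -0.75 to 0.84 in FAKi tumours and from -0.71 to 0.74 in vehicle tumours. That of the 6 measured islet markers ran from -0.50 to 0.41 in FAKi tumours and from -0.54 to 1.38 in vehicle tumours. That of the 8 fibroblast markers ran from -0.65 to 0.80 and from -1.06 to 1.08 in FAKi and vehicle tumours, and that of the 8 leukocyte markers from -0.32 to 0.70 and from -0.58 to 0.41. Skeletal muscle markers (5 genes) ran from -1.40 to 4.24 in FAKi tumours and from -1.77 to 1.70 in vehicle tumours. The part of these cell types in the claudin values was not tested.

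By their pattern over the 12 tumours, the genes most like the mean of the 10 claudins (each centred on its own mean) were Gch1 (r = 0.91), Blk (r = 0.91), Daf2 (r = 0.91), Prom1 (r = 0.90) and Tm4sf20 (r = 0.90). These r values were the highest among all measured named genes outside the family, so they are a description. Within the 6 FAKi tumours they were 0.95, 0.83, 0.74, 0.95 and 0.89, and within the 6 vehicle tumours 0.86, 0.89, 0.93, 0.99 and 0.86, in the same order of genes. The claudin mean itself ran from -0.90 to 0.44 in FAKi tumours and from -0.57 to 1.29 in vehicle tumours. FAKi 1 was the 1 FAKi tumour above 0, while vehicle 2, 3 and 4 were the highest of the 12. The mean is not scaled, so claudins of wide spread weigh heavily in it and in the genes matched to it. These were Cldn23, Cldn6, Cldn3 and Cldn1 (within-group SD 2.44, 2.20, 2.15 and 2.07). Cldn1 and Cldn3 were dim, and both were highest of the FAKi tumours in FAKi 1 (-4.04 and -2.75).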

How the data were processed

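Total RNA of 12 tumours was measured on one-colour Agilent arrays. The authors made the intensity values with Agilent Feature Extraction 11.5.1.1, which subtracted background and detrended each array, per the file headers, which name build mm9 for 11 of the 12 arrays. The authors' deposited log2 table of 38569 probes was an alternative. The submitters' processing notes list limma with no version number. How that table was normalised is not stated in the sources used here. Spots marked as outliers were left out, each array's 75th percentile of log2 processed signal was subtracted, and spots of a probe were averaged. Probes well above background on at least 6 of 12 arrays were kept (40457 probes), and each of 27373 gene names was represented by its brightest probe. Groups were compared with limma 3.58.1 (lmFit, eBayes) with no covariate and Benjamini-Hochberg adjustment over all genes at 0.05, tested on simulated data. Correlations used 100000 resamples. The number of arrays limits the precision. The members and lists were chosen with earlier results of these data known. Named genes were all 10 claudins, every other measured claudin, the 2 genes of smallest p of each of the other 3 gene lists, and the 5 most alike genes. Other normalisations, filters, blocks, arrays left out and probe rules were tried. The 11 marker lists were used only for levels, counts in each direction and median differences.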

Additional observations from a re-analysis of the deposited data

Results flagged for a closer look

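Of the 24 groups of 6 values (12 probes in FAKi and in vehicle tumours), 5 held a tumour whose gap to the nearest other tumour was, as a share of the group's range, above Dixon's 95% critical value. Chance flags about 1 in 20 groups. Cldn3 in FAKi 1 was -2.75, against -6.68 in the next highest FAKi tumour. Cldn12 in FAKi 6 was 2.16, against 1.34 in the next highest, and Cldn23 in FAKi 6 was -5.85, against -3.11 in the next lowest. Cldn2 in vehicle 5 was 0.75 by its brighter probe, against 2.87 in the next lowest vehicle tumour, and -2.38 by its dimmer probe, against 0.49. FAKi 6 and vehicle 5 are 2 of the 3 arrays of lowest correlation with the others.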

How the results depend on the processing

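The number of claudins at an adjusted p under 0.05 was 0 under every alternative with a test (7 of the 10 were measured when a probe had to be well above background on all 12 arrays). The number of genes was 4 with array weights, 1 with normexp background and 0 to 3 with 1 tumour left out (3 without FAKi 1), and 0 otherwise. The median difference of the 10 claudins was -1.02 with array weights, -0.9997 without FAKi 6, vehicle 5 and vehicle 6 (an alternative chosen after seeing the data), and -0.65 to -0.23 with 1 tumour left out. Cldn1, Cldn3, Cldn6, Cldn7 and Cldn12 kept their sign by their chosen probe in every fit with a test that measured them; the dimmer Cldn7 probe had the other sign (0.36). Cldn4 turned to -0.012 with quantile normalization, -0.054 with normexp, -0.0082 in the authors' deposited table, -0.50 with array weights and -0.65 without those 3 tumours. Cldn23 was 1.51 with slide as a fixed block and turned to -0.56 with normexp, -1.27 with array weights and -1.40 without those 3. With that block, which compares the groups on slides 1 and 4 only, Cldn6 was -0.93, Cldn18 was -0.046 and Cldn2 was 0.51. Without those 3 tumours Cldn10 was 0.18. With 1 tumour left out, Cldn4 ran from -0.56 to 0.47, Cldn23 from -0.74 to 0.69 and Cldn18 from -0.023 to 0.33. The cause was not tested. Of the correlations with the epithelial score, Cldn4 was 0.36, Cldn23 0.45, Cldn6 0.58 and Cldn2 0.72 without the 3 tumours, none passing the test, Cldn7 was 0.78 there and -0.20 without the 2 farthest tumours, Cldn18 was 0.20 within FAKi tumours and 0.0242 without the 3 tumours, Cldn12 was 0.0499 within vehicle tumours and 0.46 without the 3, and Cldn3 was -0.014 within vehicle tumours.

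Same-numbered tumours are not stated to be paired, and the correlations of their deviations ran from -0.12 to 0.48, with 3 of 12 tumours correlating best with their own number. With the replicate block the count of genes stayed 0 and the median over the claudins was -0.30.

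Dim signal limits Cldn1 and Cldn3, well above background on 7 and 6 of 12 arrays. It also limits Cldn23, well above background on 10 of 12, all but vehicle 5 and vehicle 6. The spread between 6 tumours a group limits the rest.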
